A study of Mus musculus with 16 samples.

Results

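Interferon-stimulated genes (ISGs) were followed in quadriceps muscle of mice that carried C26 tumours. C26 is a murine colorectal cancer line that is widely used as a model of cachexia, the loss of muscle in cancer. A list of 35 gene symbols, chosen with earlier results of these data known, was matched to the count table, and the 33 that were present among its 13320 genes are described here. Rnf213 and Oas1a were not analysed here. The study asked how muscle differs when colon carcinoma cells spread to the liver. All mice were male CD2F1, a hybrid of BALB/c and DBA/2, and were 8 weeks old at the intervention. Splenic C26 mice (4 libraries) had the cells injected into the spleen, from where they can seed the liver, and sham mice (4 libraries) had an operation with saline instead. Subcutaneous C26 mice (4 libraries) had the cells placed under the skin, and for control mice (4 libraries) the labels name no injection. Nothing in the labels ties each library to its own animal, and the spread behind every p-value may therefore be technical. Whole muscle was used, so the RNA of fibres, vessels, connective tissue and immune cells was measured together.

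Interferons are cytokines whose receptors carry JAK kinases, which activate STAT proteins. A complex that holds STAT2 and IRF9 enters the nucleus and binds the interferon-stimulated response element (ISRE), while the signal of interferon gamma ends on the gamma-activated sequence (GAS). The genes they switch on encode sensors of foreign nucleic acid, enzymes that block viral replication, and the pathway's own amplifiers and inhibitors. Many of them are also kept at a low level in tissue without infection.

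The DNA just upstream of 7 members is shown because these genes differ both in their binding motifs and in their values described later. Each stretch holds the 250 bases before the RefSeq transcription start (GRCm38.p6), 5′ to 3′ on the strand of the gene, with matches to the ISRE core (GAAA, then NN, then GAAA) or to GAS (TTCNNNGAA) on either strand in capitals. ISRE matches on the opposite strand appear as their reverse complement (TTTC, then NN, then TTTC), and GAS is its own reverse complement. Ifit3 and Gbp7 stand for the IFIT and guanylate-binding families, Irf1 for a GAS without an ISRE, Isg15 and Rsad2 for ISRE genes that did not pass a test in either tumour comparison, and Cmpk2 and Trim25 for members with neither motif. Isg15 has 3 ISRE matches that overlap each other. Ifit3 has 2 separate ones, Gbp7 has 1 together with 2 GAS matches, and Rsad2 has 1.
Ifit3 (chr19:34583279-34583528, plus strand): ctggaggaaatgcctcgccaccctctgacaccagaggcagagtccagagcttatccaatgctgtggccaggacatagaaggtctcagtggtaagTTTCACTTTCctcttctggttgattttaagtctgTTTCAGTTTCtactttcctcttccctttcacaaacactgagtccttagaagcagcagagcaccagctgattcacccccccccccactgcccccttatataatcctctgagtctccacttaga
Gbp7 (chr3:142530086-142530335, plus strand): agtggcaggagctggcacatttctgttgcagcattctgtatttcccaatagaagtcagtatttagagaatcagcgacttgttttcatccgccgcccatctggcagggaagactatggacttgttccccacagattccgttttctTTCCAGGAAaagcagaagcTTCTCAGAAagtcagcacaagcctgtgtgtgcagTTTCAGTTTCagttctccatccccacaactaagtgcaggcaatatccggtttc
Irf1 (chr11:53769764-53770013, plus strand): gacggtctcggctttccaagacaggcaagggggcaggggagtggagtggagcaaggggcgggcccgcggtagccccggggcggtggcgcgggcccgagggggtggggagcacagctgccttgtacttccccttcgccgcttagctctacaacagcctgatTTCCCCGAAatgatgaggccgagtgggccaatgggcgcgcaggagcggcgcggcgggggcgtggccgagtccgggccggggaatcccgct
Isg15 (chr4:156200819-156201068, minus strand): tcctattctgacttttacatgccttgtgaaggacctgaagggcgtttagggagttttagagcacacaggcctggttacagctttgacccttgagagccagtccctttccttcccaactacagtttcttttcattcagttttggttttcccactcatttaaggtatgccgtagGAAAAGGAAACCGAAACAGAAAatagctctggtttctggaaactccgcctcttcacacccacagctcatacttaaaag
Rsad2 (chr12:26456453-26456702, minus strand): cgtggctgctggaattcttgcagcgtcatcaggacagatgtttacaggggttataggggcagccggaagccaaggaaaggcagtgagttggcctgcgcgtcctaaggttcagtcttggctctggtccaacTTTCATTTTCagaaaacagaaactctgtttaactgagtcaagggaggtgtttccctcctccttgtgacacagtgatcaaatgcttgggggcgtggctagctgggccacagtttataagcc
Cmpk2 (chr12:26468965-26469214, plus strand): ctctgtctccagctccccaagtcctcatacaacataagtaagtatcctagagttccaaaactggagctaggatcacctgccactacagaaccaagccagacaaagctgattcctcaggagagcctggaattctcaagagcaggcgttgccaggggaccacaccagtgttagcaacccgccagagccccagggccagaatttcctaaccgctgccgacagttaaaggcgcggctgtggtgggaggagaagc
Trim25 (chr11:88999153-88999402, plus strand): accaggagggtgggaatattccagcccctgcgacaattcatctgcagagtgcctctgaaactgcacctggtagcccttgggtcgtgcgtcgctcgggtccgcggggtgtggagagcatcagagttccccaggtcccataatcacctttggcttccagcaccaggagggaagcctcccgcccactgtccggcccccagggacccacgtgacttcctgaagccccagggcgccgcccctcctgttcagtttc

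RefSeq promoter windows, from 250 bases before to 50 after the start, were found for 27 of the 33 members. The ISRE core lay in the windows of 13 of the 27 (48.1%), against 3.99% of all 27025 genes with a window and 3.57% of the 10122 that are also in the count table. GAS lay in 7 of the 27 (25.9%), against 9.55% of all genes with a window and 8.49% of those in the count table. Both motifs were found in 4 members and neither in 11. Of the 16 members with a window that passed as lower in both tumour comparisons, 7 held an ISRE and 5 a GAS. Of the other 11 members with a window, 6 held an ISRE and 2 a GAS. A match is a stretch of letters and not a measured binding site.

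Library totals ranged from 25.9 to 34.9 M counts. Values are given as CPM (counts scaled to a common library size) after scaling of library sizes by the trimmed mean of M-values (TMM). Fold changes come from edgeR's quasi-likelihood test over all 13320 genes with Benjamini-Hochberg adjustment, and an adjusted p under 0.05 is called a pass. The 12 muscle fibre markers summed to between 101010 and 262354 CPM in every library, while none of 13 T, B and NK cell markers was among the genes of the table. Some libraries stood apart. Splenic C26 replicate 1 and subcutaneous C26 replicate 3 were treated as intermediate between tumour-free libraries and the rest of the tumour libraries. That placement was not tested here. Splenic C26 replicates 1 and 3, control replicate 1 and subcutaneous C26 replicate 4 held transcripts of other tissues: 12 neutrophil markers summed to 203 CPM in splenic C26 replicate 3 and 54.7 CPM in control replicate 1, 9 hepatocyte markers to 226 CPM in splenic C26 replicate 1, and 3 measured epithelial and carcinoma markers to 61.6 CPM in subcutaneous C26 replicate 4. Hepatocyte markers were also high in control libraries, with 118, 237, 98.1 and 299.8 CPM in control replicates 1 to 4. Omission of the 4 libraries named for transcripts of other tissues therefore does not remove the highest hepatocyte sums.

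In splenic C26 against sham, 23 of the 33 ISGs fell, 1 rose and 9 did not pass, while 52% of all genes passed (23.9% fell and 28.1% rose). The libraries did not overlap, all splenic C26 values lying below all sham values, for 17 members, against 21.1% of all genes. In subcutaneous C26 against control, 20 fell, 1 rose and 12 did not pass, while 50% of all genes passed (23.1% fell and 27% rose). All subcutaneous C26 values lay below all control values for 20 members, against 20.7% of all genes. The median log2 fold change of the members was -1.03 in splenic C26 against sham and -0.92 in subcutaneous C26 against control, where the medians over all genes were -0.03 and -0.02. The member that rose was the same in both comparisons, Trim25, a ubiquitin ligase gene. In these bulk samples, fewer cells of a type and less RNA per cell cannot be told apart.

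The summed level of the 33 genes was 236, 152, 157 and 189 CPM in splenic C26 replicates 1 to 4, against 415, 322, 265 and 261 CPM in sham replicates 1 to 4. It was 190, 137, 188 and 177 CPM in subcutaneous C26 replicates 1 to 4, against 290, 269, 225 and 233 CPM in control replicates 1 to 4. Each tumour group lay wholly below its tumour-free group. Splenic C26 replicate 1 was the highest of its group for 25 members and replicate 3 the lowest for 23, and sham replicate 1 was the highest of its group for 21. Without splenic C26 replicate 1, 26 members fell and 2 rose, and without sham replicate 1, 18 fell and 1 rose. Over all 13320 genes the falls numbered 3186 with all libraries, 4043 without splenic C26 replicate 1 and 2760 without sham replicate 1. In the subcutaneous C26 group replicate 2 was the lowest for 23 members, and without it 14 fell and 2 rose. Of all genes 2314 fell without that library, against 3072 with all libraries. With splenic C26 replicate 1 and subcutaneous C26 replicate 3 both left out, 26 fell in splenic C26 and 22 in subcutaneous C26. Over all genes 4366 and 4198 fell in that setting. Without the 4 libraries with transcripts of other tissues, 22 members fell in splenic C26 and 18 in subcutaneous C26, and of all genes 3471 and 2796. The members whose calls were lost there were Gbp5 and Ifi27 in splenic C26 (adjusted p = 0.0921 and 0.191) and Ifit1 and Dhx58 in subcutaneous C26 (adjusted p = 0.101 and 0.0535), while Dhx58 passed in splenic C26 (adjusted p = 0.012).

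**Figure D1:**
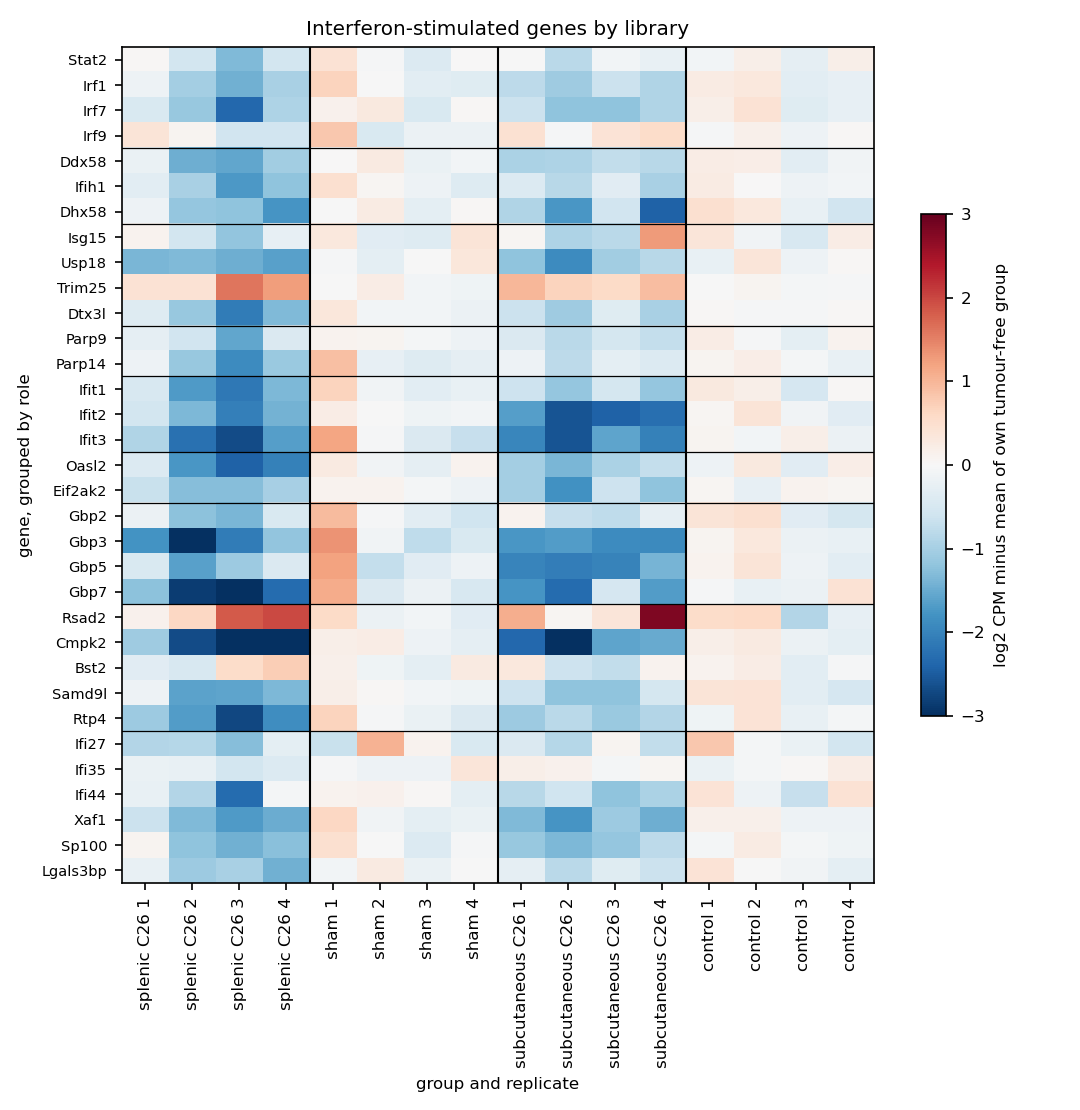
Log2 CPM of each of 33 interferon-stimulated genes (vertical axis, grouped by role) in each of 16 libraries (horizontal axis), minus the mean of the tumour-free group of the same pair, with colours ending at 3 log2 units either way. Most cells of the 8 tumour libraries are blue, Trim25 and Rsad2 are mainly red, and splenic C26 replicate 1 is paler than replicates 2 to 4.

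Passing as lower in both comparisons were 19 members: Cmpk2, Ddx58, Dtx3l, Eif2ak2, Gbp3, Gbp5, Gbp7, Ifit1, Ifit2, Ifit3, Irf1, Irf7, Oasl2, Parp9, Rtp4, Samd9l, Sp100, Usp18 and Xaf1. Over all genes 16.5% passed as lower in both. Ifi27, Ifih1, Lgals3bp and Parp14 passed as lower in splenic C26 only and Dhx58 in subcutaneous C26 only, and for none of these 5 did the difference between the tumour effects pass (adjusted p at least 0.906). The sign of the fold change was the same in both comparisons for 29 members, against 85.9% of all genes. Across the 33 members Pearson's r between the 2 sets of log2 fold changes was 0.855, and across all 13320 genes it was 0.703. The comparisons share no library, but genes are not independent points, and these values are descriptions.

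**Figure D2:**
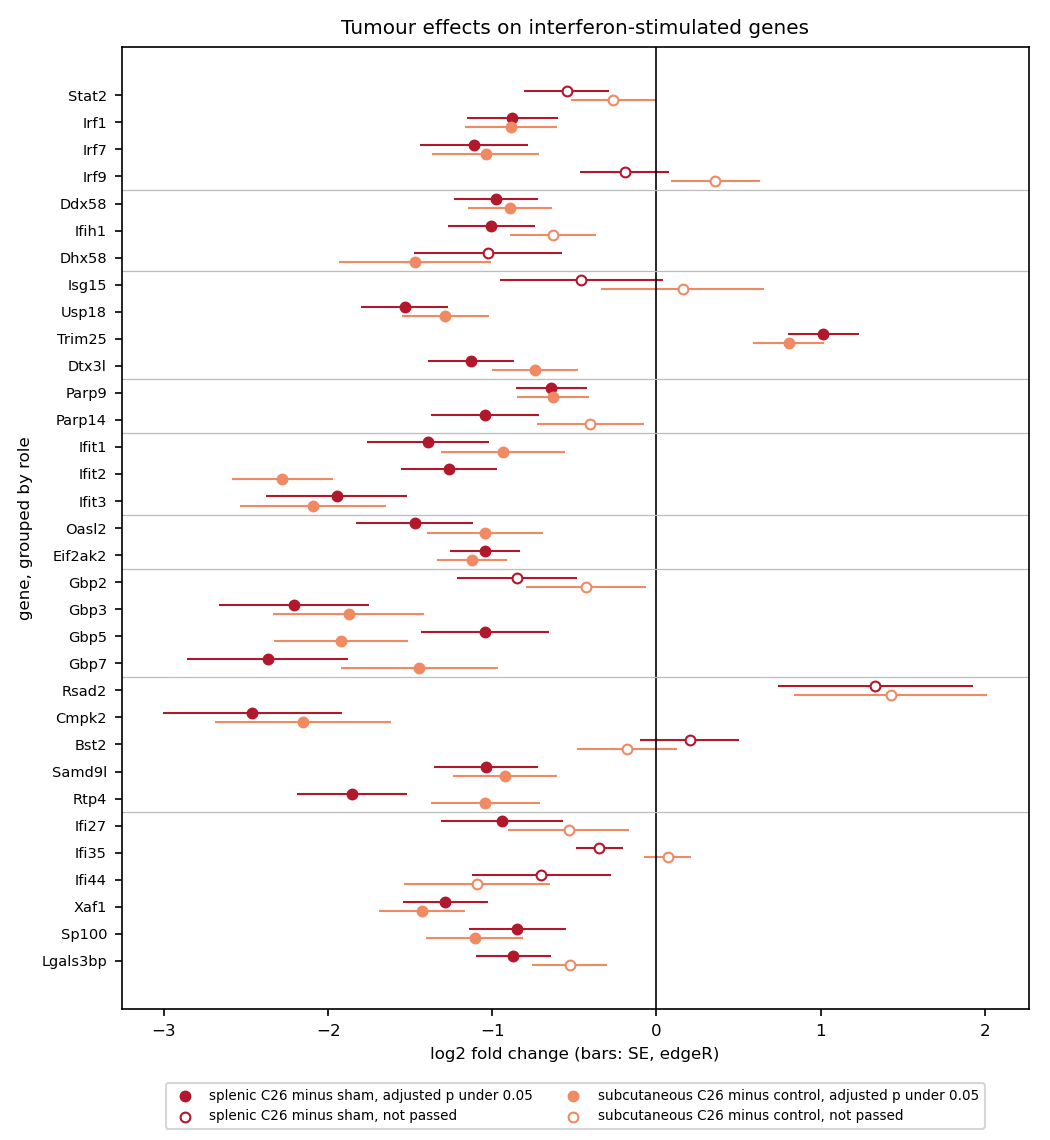
Log2 fold change (horizontal axis, bars show the SE) of each member (vertical axis, grouped by role) for splenic C26 minus sham, in dark red above, and subcutaneous C26 minus control, in orange below. Filled points passed at an adjusted p under 0.05; Trim25 is the filled pair to the right of 0, and the other filled points lie between -0.63 and -2.46.

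Of the 4 transcription factors that drive the response, 2 fell in both comparisons. Irf1 and Irf7, which are themselves induced by interferon and amplify the response, were those that fell, and Stat2 and Irf9, both part of the ISRE-binding complex, passed in neither. No difference between these genes was tested. Irf7 (chromosome 7, 141262706 to 141266481, mm10, minus strand) stood at 2.1, 1.30, 0.517 and 1.51 CPM in splenic C26 replicates 1 to 4, against 3.21, 3.59, 2.12 and 2.98 CPM in sham replicates 1 to 4. In subcutaneous C26 replicates 1 to 4 it had 1.91, 1.27, 1.28 and 1.59 CPM, against 3.46, 4.11, 2.36 and 2.54 CPM in control replicates 1 to 4. Neither tumour group overlapped its tumour-free group. The log2 fold change of Irf7 was -1.11 ± 0.33 in splenic C26 against sham (SE; adjusted p = 0.0114) and -1.04 ± 0.33 in subcutaneous C26 against control (adjusted p = 0.0161; 0.0515 without control replicate 2). The gene overlaps Phrf1 on the other strand, and the strand setting of the counting is not given in the sources used here.

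Irf1 (chromosome 11, 53770014 to 53778374, plus strand) had 11.5, 6.21, 4.61 and 6.44 CPM in splenic C26 replicates 1 to 4, against 20.3, 12.6, 10.2 and 9.91 CPM in sham replicates 1 to 4. It had 5.73, 4.76, 6.34 and 5.30 CPM in subcutaneous C26 replicates 1 to 4, against 11.8, 12.6, 7.95 and 8.47 CPM in control replicates 1 to 4. Splenic C26 replicate 1 overlapped sham, and the other pair of groups was separate. Irf1 fell by 0.88 ± 0.28 on the log2 scale in both comparisons (adjusted p = 0.0161 in splenic C26 and 0.0165 in subcutaneous C26). The splenic value was -0.60 without sham replicate 1 (adjusted p = 0.0733) and -0.72 without splenic C26 replicate 3 (adjusted p = 0.0507). Stat2 had log2 fold changes of -0.55 ± 0.26 in splenic C26 and -0.26 ± 0.26 in subcutaneous C26 (adjusted p = 0.088 and 0.416). The splenic value of Stat2 passed without splenic C26 replicate 1 (-0.79, adjusted p = 0.0121) and with upper-quartile scaling (adjusted p = 0.0453), and it was -0.36 without splenic C26 replicate 3 (adjusted p = 0.233). The subcutaneous value was -0.15 without subcutaneous C26 replicate 2. For Irf9 they were -0.19 ± 0.27 and 0.36 ± 0.27 (adjusted p = 0.566 and 0.283), and the splenic value turned to 0.16 without sham replicate 1.

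Of the cytosolic RNA sensors, Ddx58 (RIG-I) fell in both comparisons, Ifih1 (MDA5) passed in splenic C26 and Dhx58 (LGP2) in subcutaneous C26. These helicases bind double-stranded RNA, and the first of them signals from short viral RNA ends. Ddx58 (chromosome 4, 40203773 to 40239828, minus strand) had 6.25, 2.56, 2.40 and 3.46 CPM in splenic C26 replicates 1 to 4, against 7.31, 8.74, 6.24 and 6.79 CPM in sham replicates 1 to 4. It had 2.96, 2.98, 3.40 and 3.22 CPM in subcutaneous C26 replicates 1 to 4, against 6.71, 6.63, 4.58 and 5.35 CPM in control replicates 1 to 4. All subcutaneous C26 values were below all control values, while splenic C26 replicate 1 just overlapped the lowest sham library. The log2 fold change of Ddx58 was -0.98 ± 0.26 in splenic C26 (adjusted p = 0.00567) and -0.89 ± 0.26 in subcutaneous C26 (adjusted p = 0.0104).

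Ifih1 (chromosome 2, 62595798 to 62646255, minus strand) had 6.67, 4.22, 2.49 and 3.61 CPM in splenic C26 replicates 1 to 4, against 11.6, 8.77, 7.53 and 6.38 CPM in sham replicates 1 to 4. In subcutaneous C26 replicates 1 to 4 it had 5.64, 4.16, 5.88 and 3.81 CPM, against 8.86, 7.55, 6.68 and 7.05 CPM in control replicates 1 to 4. Only splenic C26 replicate 1 reached into the range of its tumour-free group. Ifih1 fell by 1.01 ± 0.27 in splenic C26 (adjusted p = 0.00597), and its log2 fold change in subcutaneous C26 was -0.63 ± 0.26 (adjusted p = 0.0575; 0.0414 without subcutaneous C26 replicate 3). Dhx58, counted at under 1.3 CPM in every library, had a log2 fold change of -1.03 ± 0.45 in splenic C26 (adjusted p = 0.0669; 0.00956 without splenic C26 replicate 1). In subcutaneous C26 it fell by 1.47 ± 0.46 (adjusted p = 0.0164; -1.03 and 0.0535 without the 4 libraries with transcripts of other tissues). Dhx58 shares its locus with the antisense gene Dhx58os.

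Of the ISG15 system and the antiviral ubiquitin ligases, Usp18 and Dtx3l fell, Trim25 rose and Isg15 did not pass, in both comparisons. Usp18 encodes the protease that removes the ubiquitin-like protein ISG15 from its targets and that also damps the type I interferon receptor. Usp18 (chromosome 6, 121245906 to 121270917, plus strand) had 0.766, 0.794, 0.705 and 0.621 CPM in splenic C26 replicates 1 to 4, against 2.02, 1.69, 2.06 and 2.64 CPM in sham replicates 1 to 4. It had 0.701, 0.413, 0.787 and 0.926 CPM in subcutaneous C26 replicates 1 to 4, against 1.43, 2.19, 1.53 and 1.73 CPM in control replicates 1 to 4. The tumour libraries were all under 1 CPM and the tumour-free ones all above it. Its fold change in splenic C26 had the smallest p of all members there (log2 fold change -1.53 ± 0.26, adjusted p = 0.000426), and in subcutaneous C26 the log2 fold change was -1.29 ± 0.26 (adjusted p = 0.00136).

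Trim25 (chromosome 11, 88999376 to 89020293, plus strand) encodes a ubiquitin and ISG15 ligase that acts on RIG-I. It had 23.9, 23.9, 53.6 and 42.5 CPM in splenic C26 replicates 1 to 4, against 17.7, 20.5, 16.7 and 16.2 CPM in sham replicates 1 to 4. In subcutaneous C26 replicates 1 to 4 it had 28.7, 22.6, 21.3 and 27.2 CPM, against 14.2, 15.2, 13.8 and 14 CPM in control replicates 1 to 4. Every tumour library was above every library of its tumour-free group. Trim25 rose by 1.02 ± 0.22 in splenic C26 (adjusted p = 0.00167) and by 0.81 ± 0.22 in subcutaneous C26 (adjusted p = 0.0071). Dtx3l, a ubiquitin ligase gene that lies head to head with its partner Parp9 on chromosome 16, fell by 1.13 ± 0.26 in splenic C26 (adjusted p = 0.00282) and by 0.74 ± 0.26 in subcutaneous C26 (adjusted p = 0.0284). The second call was lost without control replicate 4, subcutaneous C26 replicate 2 or subcutaneous C26 replicate 4 (adjusted p = 0.0522, 0.0684 and 0.0607).

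Isg15, chosen for description after its values were seen, was counted at 0.222 to 1.26 CPM. It had 0.670, 0.397, 0.235 and 0.505 CPM in splenic C26 replicates 1 to 4, against 0.786, 0.474, 0.455 and 0.823 CPM in sham replicates 1 to 4. In subcutaneous C26 replicates 1 to 4 it had 0.510, 0.222, 0.248 and 1.26 CPM, against 0.640, 0.444, 0.327 and 0.576 CPM in control replicates 1 to 4. Both pairs of groups overlapped, and subcutaneous C26 replicate 4, a library with transcripts of other tissues, was the highest of all. The log2 fold changes were -0.46 ± 0.50 in splenic C26 (adjusted p = 0.453) and 0.16 ± 0.49 in subcutaneous C26 (adjusted p = 0.807), the second being -0.62 without that library (adjusted p = 0.259) and -0.08 with upper-quartile scaling.

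Parp9 and Parp14, which attach or read ADP-ribose, both fell in splenic C26, and Parp9 fell in subcutaneous C26. Parp14 (chromosome 16, 35832874 to 35871544, minus strand) had 16.5, 8.31, 4.94 and 8.46 CPM in splenic C26 replicates 1 to 4, against 34.3, 15.6, 14 and 15.2 CPM in sham replicates 1 to 4. It had 11.5, 7.33, 10.4 and 9.52 CPM in subcutaneous C26 replicates 1 to 4, against 13.5, 14.6, 12.3 and 10.8 CPM in control replicates 1 to 4. Sham replicate 1 stood far above the other 3 sham libraries, and both pairs of groups overlapped. The log2 fold change of Parp14 was -1.05 ± 0.33 in splenic C26 (adjusted p = 0.0158) and -0.64 without sham replicate 1 (adjusted p = 0.0787). In subcutaneous C26 it was -0.40 ± 0.33 (adjusted p = 0.317).

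Parp9 (chromosome 16, 35938470 to 35972605, plus strand) had 6.96, 5.63, 2.82 and 6.17 CPM in splenic C26 replicates 1 to 4, against 9.12, 8.92, 8.14 and 7.58 CPM in sham replicates 1 to 4. It had 6.21, 4.76, 5.76 and 5.07 CPM in subcutaneous C26 replicates 1 to 4, against 9.71, 8.20, 6.79 and 9.05 CPM in control replicates 1 to 4. Neither pair of groups overlapped. Parp9 fell by 0.64 ± 0.22 in splenic C26 (adjusted p = 0.0226) and by 0.63 ± 0.22 in subcutaneous C26 (adjusted p = 0.0251). The splenic adjusted p was 0.0526 without sham replicate 1 and 0.054 without sham replicate 2, and the subcutaneous one 0.0514 to 0.0612 on omission of control replicate 1 or 4, or of subcutaneous C26 replicate 2 or 4. The ends of Parp9 and Dtx3l overlap on opposite strands, and whether reads there were assigned by strand is not given in the sources used here.

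All 3 measured IFIT genes fell in both comparisons. IFIT proteins bind viral RNA and block its translation, and their genes lie next to one another on chromosome 19. Ifit2 (34550694 to 34576419, plus strand) had 2.90, 1.62, 0.987 and 1.55 CPM in splenic C26 replicates 1 to 4, against 4.95, 4.27, 3.88 and 4.05 CPM in sham replicates 1 to 4. It had 1.47, 0.730, 0.828 and 0.926 CPM in subcutaneous C26 replicates 1 to 4, against 4.89, 6.25, 4.39 and 3.73 CPM in control replicates 1 to 4. Both pairs of groups were fully separate. Ifit2 fell by 1.26 ± 0.29 in splenic C26 (adjusted p = 0.00277) and by 2.28 ± 0.31 in subcutaneous C26 (adjusted p = 0.000103), the smallest p of the members in that comparison. It was also the member with the smallest p for the difference between the tumour effects, which was 1.01 ± 0.42 and did not pass (adjusted p = 0.692).

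Ifit3 (chromosome 19, 34583531 to 34588731, plus strand) had 2.27, 0.867, 0.611 and 1.32 CPM in splenic C26 replicates 1 to 4, against 9.84, 4.18, 3.16 and 2.64 CPM in sham replicates 1 to 4. It had 0.828, 0.508, 1.08 and 0.778 CPM in subcutaneous C26 replicates 1 to 4, against 3.59, 3.20, 3.81 and 2.98 CPM in control replicates 1 to 4. Again no tumour library reached its tumour-free group. The log2 fold change of Ifit3 was -1.95 ± 0.43 in splenic C26 (adjusted p = 0.00205) and -2.09 ± 0.44 in subcutaneous C26 (adjusted p = 0.00165). Ifit1 fell by 1.39 ± 0.37 in splenic C26 (adjusted p = 0.00633) and by 0.93 ± 0.38 in subcutaneous C26 (adjusted p = 0.0494), where leaving out any of 6 libraries (control replicates 1, 2 and 4, subcutaneous C26 replicates 1, 2 and 4) gave an adjusted p of 0.056 to 0.109. Ifit3 has a near-identical copy, Ifit3b, so the split of reads between them is uncertain; Ifit3b had log2 fold changes of -2.48 in splenic C26 and -1.43 in subcutaneous C26.

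Both measured genes of double-stranded RNA enzymes fell in both comparisons. Eif2ak2 encodes PKR, a kinase that stops translation when it binds double-stranded RNA. Eif2ak2 (chromosome 17, 78852564 to 78882573, minus strand) had 7.28, 4.77, 4.79 and 5.82 CPM in splenic C26 replicates 1 to 4, against 12.5, 12.5, 11.3 and 10.6 CPM in sham replicates 1 to 4. It had 5.64, 3.17, 7.37 and 4.93 CPM in subcutaneous C26 replicates 1 to 4, against 12.0, 9.68, 12.2 and 12.0 CPM in control replicates 1 to 4. The 8 tumour libraries all lay below the 8 tumour-free ones. Eif2ak2 fell by 1.04 ± 0.21 in splenic C26 (adjusted p = 0.00118) and by 1.12 ± 0.21 in subcutaneous C26 (adjusted p = 0.000789). Oasl2, an oligoadenylate synthetase-like gene, fell by 1.47 ± 0.36 in splenic C26 (adjusted p = 0.00365) and by 1.05 ± 0.35 in subcutaneous C26 (adjusted p = 0.0229), where it did not pass on omission of control replicate 2 or 4, or of subcutaneous C26 replicate 2 (adjusted p = 0.051 to 0.0622).

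Guanylate-binding proteins are interferon-induced GTPases that attack intracellular microbes and their vacuoles. Gbp3, Gbp5 and Gbp7 fell in both comparisons and Gbp2 passed in neither, although these 4 genes lie in 1 cluster on chromosome 3 and share sequence, so the division of reads among them is uncertain. Gbp7 (142530342 to 142550149, plus strand) had 13.8, 4.44, 3.34 and 6.56 CPM in splenic C26 replicates 1 to 4, against 70.2, 24.0, 28.7 and 23.3 CPM in sham replicates 1 to 4. It had 5.73, 3.94, 13.9 and 6.15 CPM in subcutaneous C26 replicates 1 to 4, against 19.5, 16.9, 17.7 and 26.7 CPM in control replicates 1 to 4. No tumour library overlapped its tumour-free group, and sham replicate 1 was well above the other sham libraries. The log2 fold change of Gbp7 was -2.37 ± 0.49 in splenic C26 (adjusted p = 0.00145) and -1.45 ± 0.48 in subcutaneous C26 (adjusted p = 0.0214; 0.0542 without control replicate 4 and 0.0577 without subcutaneous C26 replicate 2).

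Gbp3 (chromosome 3, 142560026 to 142573209, plus strand) had 1.53, 0.506, 1.22 and 2.37 CPM in splenic C26 replicates 1 to 4, against 13.9, 5.04, 3.19 and 3.94 CPM in sham replicates 1 to 4. It had 1.05, 1.11, 0.953 and 0.926 CPM in subcutaneous C26 replicates 1 to 4, against 3.87, 4.59, 3.27 and 3.15 CPM in control replicates 1 to 4. Both tumour groups were separate from their tumour-free groups. Gbp3 fell by 2.21 ± 0.46 in splenic C26 (adjusted p = 0.00135) and by 1.88 ± 0.46 in subcutaneous C26 (adjusted p = 0.00408).

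For Gbp5 (chromosome 3, 142493978 to 142522344, plus strand) the values were 2.78, 1.19, 1.79 and 2.83 CPM in splenic C26 replicates 1 to 4, against 9.02, 2.31, 3.03 and 3.46 CPM in sham replicates 1 to 4. They were 0.892, 0.825, 0.870 and 1.37 CPM in subcutaneous C26 replicates 1 to 4, against 3.94, 4.83, 3.31 and 2.95 CPM in control replicates 1 to 4. Splenic C26 overlapped sham, and subcutaneous C26 lay wholly below control. Gbp5 fell by 1.92 ± 0.41 in subcutaneous C26 (adjusted p = 0.00168). In splenic C26 it fell by 1.05 ± 0.39 (adjusted p = 0.0347), a call that was lost without sham replicate 1 (-0.45, adjusted p = 0.241), splenic C26 replicate 2 (adjusted p = 0.0961) or splenic C26 replicate 3 (adjusted p = 0.0806). Gbp2 had log2 fold changes of -0.85 ± 0.37 in splenic C26 and -0.43 ± 0.37 in subcutaneous C26 (adjusted p = 0.0637 and 0.341). The splenic value of Gbp2 passed without splenic C26 replicate 1 (-1.08, adjusted p = 0.0268) or sham replicate 4 (-1.03, adjusted p = 0.0377) and with DESeq2 (adjusted p = 0.0444), and it was -0.41 without sham replicate 1 (adjusted p = 0.314). The subcutaneous value was -0.28 without control replicate 2 and -0.65 without subcutaneous C26 replicate 1.

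**Figure D3:**
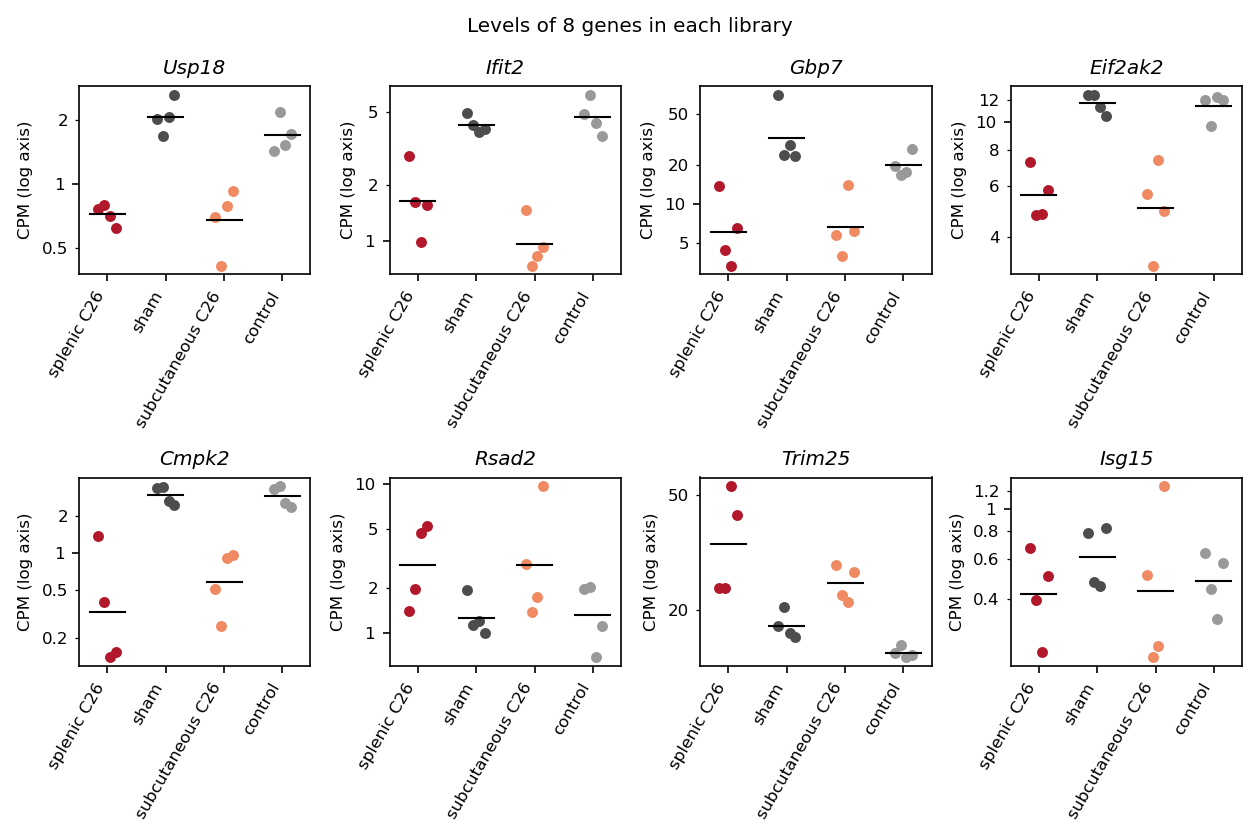
CPM on a log axis in each library of 8 genes, by group (horizontal axis, replicates 1 to 4 side by side), with lines at the geometric mean. Usp18, Ifit2, Gbp7, Eif2ak2 and Cmpk2 are lower in both tumour groups without overlap and Trim25 is higher without overlap, while the groups overlap for Rsad2 and Isg15.

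Among the other antiviral effectors, the neighbours Cmpk2 and Rsad2 had opposite signs. Cmpk2 encodes a mitochondrial nucleotide kinase and Rsad2 encodes viperin, an enzyme that makes a chain-terminating nucleotide. The genes point away from each other on chromosome 12, 12.8 kb apart. Cmpk2 (26469204 to 26479837, plus strand) had 1.37, 0.397, 0.141 and 0.155 CPM in splenic C26 replicates 1 to 4, against 3.35, 3.44, 2.65 and 2.43 CPM in sham replicates 1 to 4. It had 0.510, 0.254, 0.911 and 0.963 CPM in subcutaneous C26 replicates 1 to 4, against 3.28, 3.49, 2.54 and 2.34 CPM in control replicates 1 to 4. The groups did not overlap in either pair. Cmpk2 fell by 2.46 ± 0.55 in splenic C26 (adjusted p = 0.00212), the lowest log2 fold change of the members there, and by 2.16 ± 0.54 in subcutaneous C26 (adjusted p = 0.00447). These values rest on few counts in the tumour libraries, with a lowest count of 3 in splenic C26 and 8 in subcutaneous C26.

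Rsad2 (chromosome 12, 26442746 to 26456452, minus strand), chosen for description after its values were seen, had 1.40, 1.99, 4.70 and 5.24 CPM in splenic C26 replicates 1 to 4, against 1.95, 1.13, 1.21 and 0.994 CPM in sham replicates 1 to 4. It had 2.93, 1.40, 1.74 and 9.74 CPM in subcutaneous C26 replicates 1 to 4, against 1.97, 2.04, 0.690 and 1.12 CPM in control replicates 1 to 4. Both pairs overlapped, and the highest value was in subcutaneous C26 replicate 4. The log2 fold change of Rsad2 was 1.33 ± 0.59 in splenic C26 (adjusted p = 0.0714) and 1.43 ± 0.59 in subcutaneous C26 (adjusted p = 0.0553). It passed as higher in splenic C26 without splenic C26 replicate 1 (1.60, adjusted p = 0.0325). In subcutaneous C26 it passed without replicate 2 (adjusted p = 0.0362) or 3 (adjusted p = 0.0287) of that group, and it was 0.43 without replicate 4 (adjusted p = 0.482).

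Rtp4, which encodes a receptor-transporting protein, and Samd9l, which encodes an antiviral and growth-restraining protein, fell in both comparisons. Rtp4 (chromosome 16, 23520291 to 23614222, plus strand) had 1.18, 0.758, 0.329 and 0.660 CPM in splenic C26 replicates 1 to 4, against 4.13, 2.52, 2.25 and 1.89 CPM in sham replicates 1 to 4. It had 0.764, 0.952, 0.745 and 0.889 CPM in subcutaneous C26 replicates 1 to 4, against 1.56, 2.28, 1.45 and 1.63 CPM in control replicates 1 to 4. Tumour libraries were all below their tumour-free group. Rtp4 fell by 1.85 ± 0.34 in splenic C26 (adjusted p = 0.000591) and by 1.04 ± 0.33 in subcutaneous C26 (adjusted p = 0.0171; 0.0555 without control replicate 2). The locus overlaps Masp1 on the other strand.

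Samd9l (chromosome 6, 3372257 to 3399572, minus strand) had 10.7, 3.83, 3.90 and 4.62 CPM in splenic C26 replicates 1 to 4, against 13.4, 12.1, 11.2 and 10.8 CPM in sham replicates 1 to 4. It had 6.37, 4.22, 4.22 and 6.85 CPM in subcutaneous C26 replicates 1 to 4, against 13.0, 13.2, 7.92 and 6.95 CPM in control replicates 1 to 4. The groups stayed apart in both pairs, by a small margin at splenic C26 replicate 1 and subcutaneous C26 replicate 4. Its log2 fold change was -1.04 ± 0.32 in splenic C26 (adjusted p = 0.0132) and -0.92 ± 0.32 in subcutaneous C26 (adjusted p = 0.025), where omission of control replicate 1 or 2, and of subcutaneous C26 replicate 2 or 3, gave an adjusted p of 0.055 to 0.0704. Bst2, which encodes the virus tether tetherin, had log2 fold changes of 0.20 ± 0.30 in splenic C26 and -0.18 ± 0.30 in subcutaneous C26 (adjusted p = 0.585 and 0.642).

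Of the other 6 interferon-induced genes, Xaf1 and Sp100 fell in both comparisons, Ifi27 and Lgals3bp passed in splenic C26, and Ifi35 and Ifi44 passed in neither. Xaf1 encodes a partner of the apoptosis inhibitor XIAP. Xaf1 (chromosome 11, 72301629 to 72313733, plus strand) had 4.08, 2.53, 1.93 and 2.25 CPM in splenic C26 replicates 1 to 4, against 9.84, 5.93, 5.20 and 5.52 CPM in sham replicates 1 to 4. It had 2.23, 1.62, 2.65 and 2.00 CPM in subcutaneous C26 replicates 1 to 4, against 6.35, 6.28, 5.12 and 5.08 CPM in control replicates 1 to 4. Neither pair overlapped. Xaf1 fell by 1.29 ± 0.26 in splenic C26 (adjusted p = 0.00116) and by 1.43 ± 0.26 in subcutaneous C26 (adjusted p = 0.000669). Sp100, a nuclear body protein gene, fell by 1.11 ± 0.29 in subcutaneous C26 (adjusted p = 0.00659). In splenic C26 Sp100 fell by 0.85 ± 0.29 (adjusted p = 0.025), which became 1.34 lower without splenic C26 replicate 1 and did not pass without sham replicate 1 or splenic C26 replicate 2, 3 or 4 (adjusted p = 0.0703 to 0.0855).

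Ifi27, a small membrane protein gene (chromosome 12, 103434211 to 103440239, plus strand), had 15.5, 15.8, 11.8 and 23.1 CPM in splenic C26 replicates 1 to 4, against 17.8, 58.3, 30.4 and 20.7 CPM in sham replicates 1 to 4. It had 18.5, 13.8, 26.5 and 15 CPM in subcutaneous C26 replicates 1 to 4, against 43.5, 24.1, 21.9 and 17.1 CPM in control replicates 1 to 4. Both pairs overlapped, with 1 high library among the 4 of each tumour-free group. Ifi27 fell by 0.94 ± 0.37 in splenic C26 (adjusted p = 0.0446), a call lost without sham replicate 2 (-0.46, adjusted p = 0.251) and without sham replicate 3 or splenic C26 replicate 1, 2 or 3 (adjusted p = 0.0683 to 0.115). In subcutaneous C26 its log2 fold change was -0.53 ± 0.37 (adjusted p = 0.238), and -0.21 without control replicate 1. Lgals3bp, which encodes a secreted galectin-binding glycoprotein, fell by 0.87 ± 0.23 in splenic C26 (adjusted p = 0.00571). In subcutaneous C26 it had a log2 fold change of -0.53 ± 0.23 (adjusted p = 0.0633; 0.0493 without control replicate 4 and 0.0496 without subcutaneous C26 replicate 1). Ifi35 had log2 fold changes of -0.35 ± 0.14 in splenic C26 (adjusted p = 0.0524; 0.0376 without splenic C26 replicate 1) and 0.07 ± 0.14 in subcutaneous C26 (adjusted p = 0.705), and Ifi44 had -0.70 ± 0.42 (adjusted p = 0.175) and -1.09 ± 0.44 (adjusted p = 0.0516; 0.0341 without control replicate 3).

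Levels can be compared between genes on the deposited log2 scale, which is per length of transcript. In the tumour-free libraries 5 of the 33 members lay above the median of all genes. Ifi27 had the highest level, with a mean of 4.67 ± 0.63 log2 units (SD, n = 8), followed by Lgals3bp at 3.41 ± 0.24, Ifi35 at 2.95 ± 0.23, Bst2 at 2.25 ± 0.30 and Sp100 at 2.2 ± 0.26. The lowest levels were those of Ifi44 at -2.04 ± 0.41, Rsad2 at -1.46 ± 0.53 and Dhx58 at -1.28 ± 0.35, and Bst2 and Sp100 differed by less than their spread, as did Rsad2 and Dhx58. In splenic C26 Rsad2 averaged -0.36 log2 units and Cmpk2 -2.93, against -1.50 and -0.09 in sham. In subcutaneous C26 Rsad2 averaged -0.35 and Cmpk2 -2.28, against -1.43 and -0.12 in control. By group mean, the order of these neighbouring genes on the per-length scale was thus opposite in the tumour and the tumour-free groups. Splenic C26 replicate 1 kept the order of sham, with Rsad2 at 1.40 CPM over 3.785 kb and Cmpk2 at 1.37 CPM over 3.189 kb. Rsad2 passed in neither comparison.

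The effects of the splenic and the subcutaneous tumour were set against each other in 1 interaction term, which passed for 0 of the 33 members and for 0% of all genes with edgeR. The members' differences in log2 effect ran from -0.92 for Gbp7 to 1.01 for Ifit2. At an unadjusted p under 0.05 the term was met by 1 member, Ifit2, and by 6.39% of all genes. DESeq2 called 0 members and 86 of all genes for this term, and limma-voom called 0 of either. These p-values do not show that the effects were equal. Between sham and control, which differ both in the operation and in the title prefix of their libraries so that these cannot be told apart, 0 members passed, against 0.00751% of all genes (1 gene). The members' median log2 difference was 0.25 and 28 of 33 were above 0, while the median over all genes was 0.00. Unadjusted, 1 member (Irf9) had a p under 0.05 with edgeR, 3 with DESeq2 and 2 with limma-voom, against 2.1%, 2.36% and 2.24% of all genes with these tools in turn. DESeq2 called 58 of all genes for this comparison and 0 members, and all members had an adjusted p of 0.999963 with edgeR. All sham values lay above all control values for Ifit1 and Trim25, against 2.46% of all genes, and below them for 0 members, against 2.39% of all genes.

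Other genes of the pathway came from lists also made with earlier results known. Of 95 measured, 21 rose and 25 fell in splenic C26 against sham, where 28.1% of all genes rose and 23.9% fell. In subcutaneous C26 against control 22 rose and 16 fell, where 27% of all genes rose and 23.1% fell. These totals are near the shares of all genes and are no result about the pathway. The splenic count of lower genes was 40 without splenic C26 replicate 1, where the count over all genes went from 3186 to 4043. Among 10 listed ligand genes Il15, a cytokine and not itself an interferon, was the one measured, and the 9 interferon genes were not analysed here. Il15 fell by 1.27 ± 0.46 in subcutaneous C26 (adjusted p = 0.0304; 0.059 to 0.0749 on omission of control replicate 1 or 3, or of subcutaneous C26 replicate 1, 2 or 4). In splenic C26 its log2 fold change was -1.07 ± 0.45 (adjusted p = 0.0568; 0.0028 without splenic C26 replicate 1). Of 5 receptor genes, Ifngr2, a chain of the interferon gamma receptor, fell in splenic C26 by 0.76 ± 0.31 (adjusted p = 0.047; 0.0666 to 0.109 without sham replicate 1, 3 or 4 or splenic C26 replicate 3 or 4, and 0.0582 without the 4 libraries with transcripts of other tissues) and none passed in subcutaneous C26. There Ifngr2 had a log2 fold change of -0.42 ± 0.30 (-0.79 without subcutaneous C26 replicate 3, adjusted p = 0.0232). Ifnar1, a chain of the type I interferon receptor, had -0.06 ± 0.14 in splenic C26 and 0.19 ± 0.14 in subcutaneous C26. Il10rb had -0.51 ± 0.29 in splenic C26 (adjusted p = 0.146; 0.0394 without splenic C26 replicate 4, and -0.33 without replicate 3) and -0.67 ± 0.29 in subcutaneous C26 (adjusted p = 0.0633; 0.0328 without subcutaneous C26 replicate 1). Ifngr1 had 0.50 ± 0.23 in splenic C26 (adjusted p = 0.0778; 0.025 without splenic C26 replicate 2, and 0.33 without replicate 4). In subcutaneous C26 Ifngr1 had 0.46 ± 0.23 (adjusted p = 0.107; 0.025 without subcutaneous C26 replicate 3, and 0.29 without replicate 1).

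The receptor kinase genes Jak1, Jak2 and Tyk2 passed in neither comparison, with log2 fold changes between -0.32 and 0.20. Tyk2, at -0.32 ± 0.17 in splenic C26 (adjusted p = 0.119), passed as lower there without splenic C26 replicate 1 (adjusted p = 0.0285) or 2 (adjusted p = 0.047). Of 5 further IRF genes measured, 1 rose and 1 fell in splenic C26, and 2 rose and 1 fell in subcutaneous C26. The shares of all genes were 28.1% higher and 23.9% lower in splenic C26, and 27% higher and 23.1% lower in subcutaneous C26. Irf5, a factor of Toll-like receptor signalling, fell by 1.51 ± 0.36 in splenic C26 (adjusted p = 0.00311) and by 1.53 ± 0.35 in subcutaneous C26 (adjusted p = 0.00288). Irf2, which competes with Irf1 for its sites, rose by 0.60 ± 0.18 in splenic C26 (adjusted p = 0.013; 0.0522 without splenic C26 replicate 4) and by 0.75 ± 0.18 in subcutaneous C26 (adjusted p = 0.00387). Irf3 rose in subcutaneous C26 by 0.62 ± 0.16 (adjusted p = 0.00652) and had 0.26 ± 0.16 in splenic C26. Irf4, a factor of lymphocytes and macrophages, had 0.58 ± 0.49 in splenic C26 (0.11 without splenic C26 replicate 4) and 0.94 ± 0.49 in subcutaneous C26 (adjusted p = 0.118; 0.00588 without subcutaneous C26 replicate 3).

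Of 10 feedback inhibitor genes, 5 rose and 1 fell in splenic C26 and 4 rose and 0 fell in subcutaneous C26. Among all genes 28.1% rose and 23.9% fell in splenic C26, and 27% rose and 23.1% fell in subcutaneous C26. The 4 with the smallest p rose in both comparisons. Socs3, which blocks JAK kinases at the receptors of the IL-6 family, had 40.0, 113, 164 and 192 CPM in splenic C26 replicates 1 to 4, against 3.86, 3.79, 4.53 and 4.80 CPM in sham replicates 1 to 4. In subcutaneous C26 replicates 1 to 4 it had 119, 95.8, 38.6 and 72.0 CPM, against 4.69, 6.13, 4.25 and 4.37 CPM in control replicates 1 to 4. Its levels did not overlap in either pair. Ptpn1 and Ptpn2, phosphatases of JAK and STAT proteins, rose by 0.87 ± 0.10 and 1.33 ± 0.27 in splenic C26 (adjusted p = 5.75e-05 and 0.00116) and by 0.62 ± 0.10 and 1.13 ± 0.27 in subcutaneous C26 (adjusted p = 0.00041 and 0.00316). Pias4, a SUMO ligase of the family of STAT inhibitors, rose by 1.11 ± 0.17 in splenic C26 and by 1.24 ± 0.17 in subcutaneous C26 (adjusted p = 0.000245 and 0.000134).

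Of 16 nucleic acid sensing genes, 7 rose and 2 fell in each comparison. Of all genes, 28.1% rose and 23.9% fell in splenic C26, and 27% rose and 23.1% fell in subcutaneous C26. Trex1, the exonuclease that clears cytosolic DNA, rose by 1.33 ± 0.18 in splenic C26 (adjusted p = 0.000128) and by 1.36 ± 0.18 in subcutaneous C26 (adjusted p = 0.000108). Samhd1, which degrades nucleotides, rose by 1.10 ± 0.27 and 1.76 ± 0.28, and the adaptor gene Myd88 by 1.68 ± 0.24 and 1.31 ± 0.24. Traf3, an adaptor upstream of interferon production, fell by 1.22 ± 0.18 in splenic C26 (adjusted p = 0.000173) and by 1.04 ± 0.18 in subcutaneous C26 (adjusted p = 0.000423). Of 55 further interferon-induced genes, 8 rose and 20 fell in splenic C26, and 9 rose and 12 fell in subcutaneous C26. The subcutaneous count of lower genes is near the share of all genes and is no result about this list. The medians of the list were -0.71 and -0.40, against -0.03 and -0.02 over all genes. Ifi203, a DNA-binding protein gene of a multigene family, fell by 1.57 ± 0.26 and 1.07 ± 0.25. Ifitm1, a membrane protein gene that hinders virus entry, rose by 2.43 ± 0.44 and 2.61 ± 0.45, Tor1aip1, a nuclear membrane protein gene, by 0.96 ± 0.16 and 0.88 ± 0.16, and Znfx1, an RNA helicase gene, by 0.56 ± 0.12 and 0.74 ± 0.12. In each of these pairs splenic C26 comes first and subcutaneous C26 next.

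**Figure D4:**
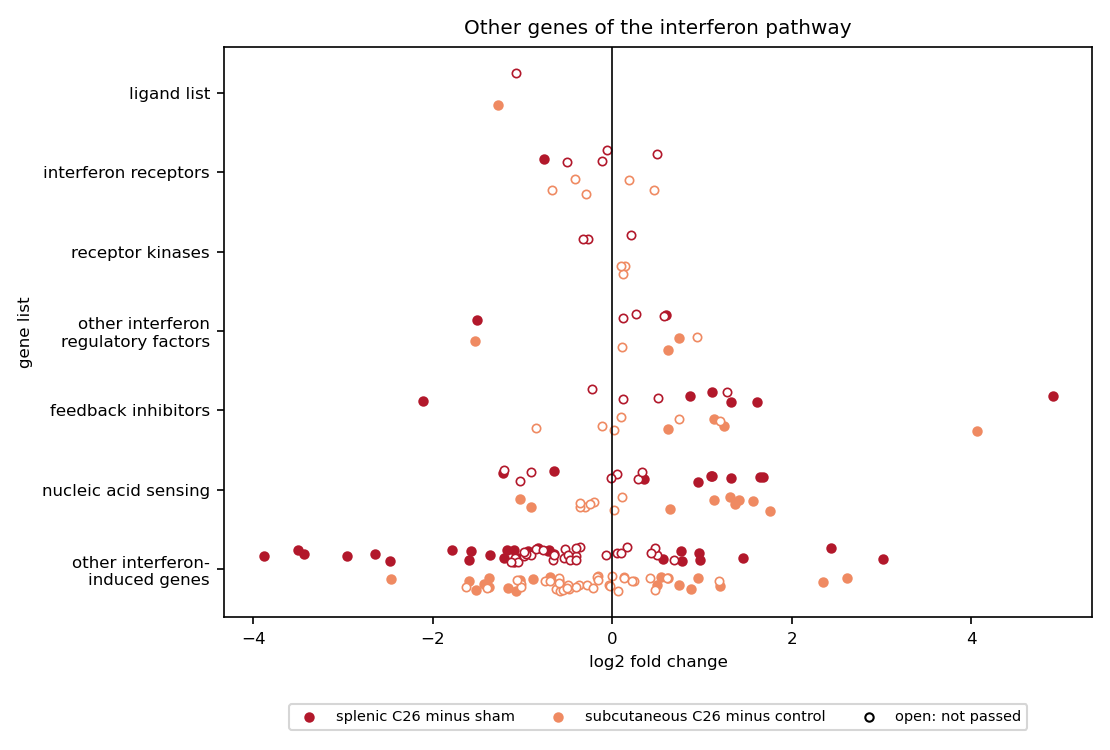
Log2 fold changes (horizontal axis) of 95 further interferon pathway genes by list (vertical axis), for splenic C26 minus sham in dark red above and subcutaneous C26 minus control in orange below, with open points for genes that did not pass. Feedback inhibitors that passed lie mostly to the right of 0, led by Socs3 at 4.90 and 4.06, and the further interferon-induced genes lie on both sides.

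Immune and stromal cells also express ISGs, and their markers were measured in the same libraries. The counts of markers are set against 28.1% of all genes higher and 23.9% lower in splenic C26, and 27% higher and 23.1% lower in subcutaneous C26. All 15 macrophage and monocyte markers were present, of which 1 (Cd68) rose and 1 (Csf1r) fell in splenic C26, and 2 (Itgam and Cd163) rose and 0 fell in subcutaneous C26. Their summed level was 232 to 479 CPM in splenic C26, against 297 to 370 CPM in sham, and 234 to 511 CPM in subcutaneous C26, against 188 to 371 CPM in control. Both pairs overlapped, unlike the sums of the ISGs. Of 10 markers of fibro-adipogenic progenitors, the connective tissue cells of muscle, 7 fell and 0 rose in splenic C26, and 6 fell and 1 rose in subcutaneous C26. Their sum was 2960, 991, 1107 and 1222 CPM in splenic C26 replicates 1 to 4, against 2568 to 3291 CPM in sham. It was 1039 to 1929 CPM in subcutaneous C26, against 1857 to 3797 CPM in control. Splenic C26 replicate 1 was thus within the sham range for these markers, and its members' median log2 deviation from sham was -0.32, against -1.56 to -1.11 in the other 3 splenic C26 libraries. That library also had the highest macrophage (479 CPM), endothelial (538 CPM) and hepatocyte (226 CPM) sums of its group. Its neutrophil, pericyte and muscle fibre sums were not the highest. The part of any of these cells in the ISG values was not tested.

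Of 11 endothelial markers 6 rose and 1 fell in splenic C26, while 1 rose and 5 fell in subcutaneous C26, and the part of these cells was not tested either. The endothelial sum was 294 to 538 CPM in splenic C26, against 320 to 385 CPM in sham, and 231 to 309 CPM in subcutaneous C26, against 372 to 429 CPM in control. Of 9 pericyte and smooth muscle markers 1 rose and 2 fell in splenic C26, and 1 rose and 7 fell in subcutaneous C26 (median log2 fold change -1.05). Their sum was 514 to 662 CPM in splenic C26, against 603 to 658 CPM in sham, and 597 to 642 CPM in subcutaneous C26, against 628 to 674 CPM in control. Of 12 measured neutrophil markers 10 rose and 0 fell in splenic C26 (median 5.66), and 0 passed in subcutaneous C26. Their sum was 11.8, 6.54, 203 and 21.4 CPM in splenic C26 replicates 1 to 4, against 4.44 to 6.69 CPM in sham. Of 9 hepatocyte markers 7 rose and 0 fell in splenic C26, and 0 rose and 8 fell in subcutaneous C26. The hepatocyte sum was 226, 35.0, 27.5 and 49.1 CPM in splenic C26 replicates 1 to 4, against 31.8 to 91.6 CPM in sham. Splenic C26 replicate 1 alone lay above the sham range. In subcutaneous C26 that sum was 67.6 to 149 CPM, against 98.1 to 299.8 CPM in control. The part of these cell types in the ISG values was not tested. Of 9 dendritic cell markers 4 were present, and 1, Siglech, passed and fell in both comparisons. It was named after its values were seen. The other 3 passed in neither comparison. Of the 4 log2 fold changes, 2 were below 0 in splenic C26 and 3 in subcutaneous C26. Siglech marks plasmacytoid dendritic cells, which are known as strong makers of type I interferon. It had 0.989, 0.253, 0.141 and 0 CPM in splenic C26 replicates 1 to 4, against 2.80, 3.5, 2.46 and 2.81 CPM in sham replicates 1 to 4. In subcutaneous C26 replicates 1 to 4 it had 0.0637, 0.0635, 0.331 and 0.111 CPM, against 2.69, 3.64, 3.16 and 1.97 CPM in control replicates 1 to 4. Each tumour library was below each tumour-free library. The table kept genes above 0.5 CPM in at least 4 libraries. Among tumour libraries Siglech reached that only in splenic C26 replicate 1, so its place in the table rested on its tumour-free levels. Its separation and tests are therefore given as a description. The fitted log2 fold changes were -2.98 ± 0.65 (adjusted p = 0.00189) in splenic C26 and -4.36 ± 0.73 (adjusted p = 0.00038) in subcutaneous C26. Whether this 1 marker reflects a cell type was not tested.

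**Figure D5:**
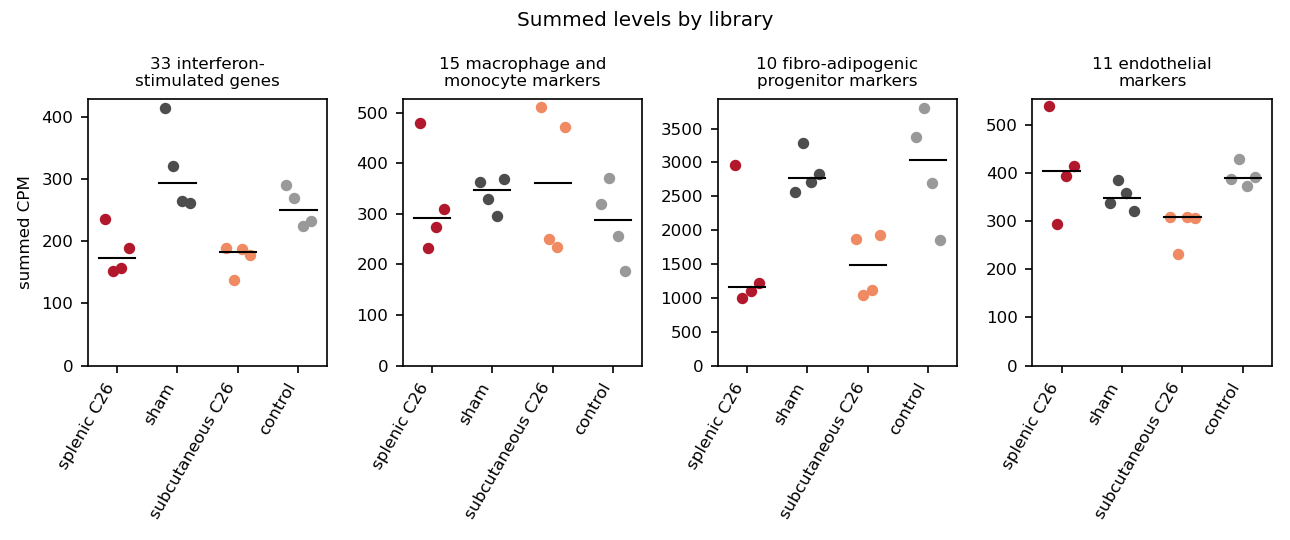
Summed CPM in each library (points, replicates 1 to 4 side by side; lines at the group median) of the 33 interferon-stimulated genes and of 3 sets of cell type markers, by group. The ISG sums of each tumour group and its tumour-free group do not overlap, the macrophage sums overlap in both pairs, and splenic C26 replicate 1 lies with sham for the fibro-adipogenic markers. The endothelial sums of subcutaneous C26 lie wholly below control, and those of splenic C26 overlap sham.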

How the data were processed

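Quadriceps RNA of 16 samples was sequenced as 75-base paired ends, with 1 round of RNA isolation and sequencing for the whole set, per the labels' protocols. The authors deposited raw read counts per gene, made with STAR and featureCounts per the labels. The submitters' processing notes list FastQC, STAR, edgeR and the mm10 build. For tool versions, gene annotation and strandedness of counting, no statement was found in the sources used here. The authors also deposited a table of log2 values. Compared with the counts, these equalled log2 CPM after TMM scaling (prior count 2) minus 1 constant per gene (residual SD 3.94e-05 over 8287 genes with at least 100 counts in every library). The constant corresponded to a whole number of bases (within 0.05) in 99.9% of genes, so the values are per length. The table held 13320 genes, all above 0.5 CPM in at least 4 libraries, and 4013 blank lines, which were left out. The members, the lists, the tests and the rule for named genes were chosen with earlier results of these data known.

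Counts were fitted with edgeR 4.0.16 in R 4.3.3 (TMM, factors 0.802 to 1.21, robust quasi-likelihood, 1 mean per group over 16 libraries, Benjamini-Hochberg over all genes); the SE is the log2 fold change divided by the root of F. Chi-square per degree of freedom was 12.8 or more for each pair of libraries within a group, and each was counted as its own sample. The lowest count of a member in a library was 2. GENCODE M21 (mm10) matched 12868 symbols (96.6%) and all 33 members. Per-library values are given in each role for the members with the smallest p in either tumour comparison and the highest mean CPM, and for members that rose; of each pathway list the 4 genes with the smallest p are named. Stat2, Irf9, Isg15, Rsad2, Bst2, Gbp2, Dhx58, Dtx3l, Ifit1, Ifit3b, Oasl2, Sp100, Lgals3bp and the marker Siglech were named in addition, after their values were seen. Alternatives were other scalings, filters and tools (DESeq2 1.42.0, limma 3.58.1), fits of 8 libraries and omission of libraries. Some pathway genes are not reported here.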

Additional observations from a re-analysis of the deposited data

Results flagged for a closer look

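In groups of 4 libraries, the highest or lowest library was compared with the other 3 by Dixon's ratio of the gap to the whole range, against its 95% critical value. Of 132 groups (33 members in 4 groups), 9 exceeded it, and chance gives about 1 in 20 groups. Sham replicate 1 was the high library for 5 members, with Irf9 at 15.1 CPM (others 6.19 to 7.58), Parp14 at 34.3 CPM (others 14 to 15.6), Ifit1 at 3.04 CPM (others 1.5 to 1.75), Gbp7 at 70.2 CPM (others 23.3 to 28.7) and Xaf1 at 9.84 CPM (others 5.20 to 5.93). Splenic C26 replicate 1 was high for Samd9l at 10.7 CPM (others 3.83 to 4.62) and for Sp100 at 10.2 CPM (others 3.48 to 4.12). Subcutaneous C26 replicate 4 was high for Gbp5 at 1.37 CPM (others 0.825 to 0.892). Control replicate 2 was low for Eif2ak2 at 9.68 CPM (others 12.0 to 12.2). The causes were not tested.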

How the results depend on the processing

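No paired analysis was possible because the sample titles number the groups compared without shared replicate numbers. Of the 24 members that passed in splenic C26, 18 passed under all settings run, and of the 21 in subcutaneous C26, 12 did. Over settings other than single omissions, 17 (only the 8 libraries compared) to 27 (upper-quartile scaling) members fell in splenic C26 and 18 to 23 in subcutaneous C26. With 1 library omitted, 18 to 26 fell and 1 to 2 rose in splenic C26, and 14 to 21 fell and 1 to 2 rose in subcutaneous C26. The median ran from -1.34 to -0.84 and from -1.03 to -0.83. Over all genes the falls with 1 library omitted ran from 2467 to 4043 in splenic C26 and from 2314 to 3734 in subcutaneous C26. With only the 8 libraries compared, 2546 of all genes fell in splenic C26. The second riser, wherever the count was 2, was Rsad2: in splenic C26 with DESeq2, with only the 8 libraries compared, without the 2 intermediate libraries, without the 4 libraries with transcripts of other tissues, and without replicate 1 of sham and splenic C26 together (chosen after seeing the data, with 25 lower); in subcutaneous C26 with DESeq2 and without the 2 intermediate libraries. Upper-quartile scaling moved the median of all genes to -0.24 in splenic C26 and -0.26 in subcutaneous C26, and that of the members in subcutaneous C26 to -1.17. It split all calls into 2749 higher and 4384 lower in splenic C26 (main scaling 3745 and 3186) and 2412 higher and 4509 lower in subcutaneous C26 (main scaling 3593 and 3072). Pathway genes lower in splenic C26 numbered 15 with only the 8 libraries compared, 40 without the 2 intermediate libraries and 18 to 40 with 1 library omitted; in subcutaneous C26 they numbered 24 with only its 8 libraries.

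Signs that turned all belonged to values that did not pass. In splenic C26 these were Irf9 without sham replicate 1 (0.163), Bst2 with upper-quartile scaling (-0.0261) and without splenic C26 replicate 4 (-0.0234), Ifnar1 without splenic C26 replicate 3 (0.0692) and without the 4 libraries (0.0413) and Jak1 with upper-quartile scaling (-0.015). In subcutaneous C26 upper-quartile scaling turned Isg15 (-0.0811), Ifi35 (-0.170), Ifnar1 (-0.0559), Tyk2 (-0.147), Jak1 (-0.0991) and Jak2 (-0.122). Isg15 also turned with limma-voom (-0.154), with limma-trend on the deposited log2 values (-0.0982), without subcutaneous C26 replicate 4 (-0.622) and without the 4 libraries (-0.462). Ifi35 turned without control replicate 1 (-0.0095) and without the 4 libraries (-0.0044), and Jak2 without control replicate 1 (-0.0033). Irf3 in subcutaneous C26 and Irf2 in splenic C26 did not pass with upper-quartile scaling (adjusted p = 0.084 and 0.0684). With 1 library omitted, these values ran from -0.397 to 0.163 for Irf9, -0.0234 to 0.380 for Bst2 and -0.120 to 0.0692 for Ifnar1 in splenic C26, and from -0.622 to 0.404 for Isg15, -0.0095 to 0.148 for Ifi35 and -0.0033 to 0.262 for Jak2 in subcutaneous C26. The causes were not tested. Isg15, Dhx58 and Ifi44, at about 1 CPM or less, rest on few counts. Other members were also low in splenic C26, where the lowest library counts were 3 for Cmpk2, 7 for Rtp4 and 8 for Ifit1. Dhx58 was above 0.5 CPM in every tumour-free library but, among tumour libraries, only in splenic C26 replicate 1 and subcutaneous C26 replicate 3. Its place in the table therefore rested on its tumour-free levels. The same held for Ifi44. Among tumour libraries Ifi44 was above 0.5 CPM only in splenic C26 replicates 1 and 4 (0.606 and 0.699 CPM). It was above 0.5 CPM in every tumour-free library except control replicate 3 (0.327 CPM).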
